A study of Mus musculus with 78 samples.

Results

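The 6 genes that encode the chains of the fibril-forming cartilage collagens, Col2a1, Col9a1, Col9a2, Col9a3, Col11a1 and Col11a2, were followed by RNA sequencing in cytokine-treated tissue-engineered cartilage. They were picked by name, 6 of 52459 named genes in the count table, and all 6 passed the low-count filter that left 18857 genes for testing. The tissue was grown from chondrocytes derived from mouse induced pluripotent stem cells. It was kept without cytokine for 0, 4, 12, 24 or 72 h, or with 1 ng/mL IL-1beta or 20 ng/mL TNF-alpha for 4, 12, 24 or 72 h. Each of the 13 groups had 3 libraries labelled a, b and c, apart from the control at 0 h, where libraries a and c were used and column b was left out. The sources used here do not say whether libraries of a group came from separate cultures, so p-values measure the spread between libraries, which may be technical. No genotype or age is given, and the 2 cytokines were each used at 1 dose.

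Collagen II is a homotrimer of chains from Col2a1 and makes up most of the fibrils of hyaline cartilage. Collagen XI, with chains from Col11a1 and Col11a2 and a remaining chain from Col2a1, starts the fibrils and limits their width. Collagen IX, a heterotrimer of chains from Col9a1, Col9a2 and Col9a3, sits on the fibril surface and links it to other matrix proteins. Sox9 together with Sox5 and Sox6 drives these genes in chondrocytes, and IL-1beta and TNF-alpha are inflammatory cytokines found in arthritic joints.

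The 6 genes lie on 6 chromosomes in the GRCm38.p6 annotation of RefSeq. Col2a1 (ENSMUSG00000022483) spans bases 97975602 to 98004724 of chromosome 15. Col9a1 (ENSMUSG00000026147) spans 24177589 to 24252738 of chromosome 1, Col9a2 (ENSMUSG00000028626) spans 121039566 to 121055325 of chromosome 4, and Col9a3 (ENSMUSG00000027570) spans 180598102 to 180622192 of chromosome 2. Col11a1 (ENSMUSG00000027966) spans 114030479 to 114220756 of chromosome 3, and Col11a2 (ENSMUSG00000024330) spans 34038919 to 34066684 of chromosome 17. The sequence just before the start was read for the 4 genes with an entry in the RefSeq promoter table (Col9a1 with 2 start sites, Col9a2, Col11a1 and Col11a2). The runs below are on the plus strand, 5′ to 3′, and end before the first base of the annotated gene; capitals mark letters matching a searched motif. The Col9a1 run is chr1:24177360-24177588, the Col9a2 run chr4:121039316-121039565 and the Col11a1 run chr3:114030290-114030478.
Col9a1: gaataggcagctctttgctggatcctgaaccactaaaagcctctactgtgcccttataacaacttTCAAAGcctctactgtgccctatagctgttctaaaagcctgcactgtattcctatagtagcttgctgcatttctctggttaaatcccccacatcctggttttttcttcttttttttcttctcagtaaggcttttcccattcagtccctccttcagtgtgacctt
Col9a2: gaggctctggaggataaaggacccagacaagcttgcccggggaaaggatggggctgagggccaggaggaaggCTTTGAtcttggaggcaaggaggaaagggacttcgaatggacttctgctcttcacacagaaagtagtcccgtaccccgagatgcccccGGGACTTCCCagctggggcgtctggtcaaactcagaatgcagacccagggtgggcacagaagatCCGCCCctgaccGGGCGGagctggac
Col11a1: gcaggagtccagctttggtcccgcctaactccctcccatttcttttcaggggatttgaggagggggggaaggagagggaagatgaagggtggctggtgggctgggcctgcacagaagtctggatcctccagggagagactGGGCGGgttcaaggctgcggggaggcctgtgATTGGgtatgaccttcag
The capitals in Col9a1 are TCAAAG, a SOX letter core. Those in Col9a2 are CTTTGA, the same core on the other strand, GGGACTTCCC, which matches the NF-kappaB consensus, and 2 GC boxes. Those in Col11a1 are a GC box and, nearer the start of the gene, a CCAAT box on the other strand.

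Each motif was searched on both strands in the 250 bases before 5 starts listed for these genes and before all 32851 starts in the table, where matches may overlap. The Col11a2 window (chr17:34038888-34039137) lies mostly within the annotated gene, as do its matches, so it is not printed. The second Col9a1 window is wholly within the gene. The first Col9a1 window and the Col11a1 window run past the first base of the gene. The GC box GGGCGG was in 3 of 5 windows against 32.7% of all windows. The SOX core was searched in the spelling ACAAAG, in the spelling ACAATG, in the spelling TCAAAG and in the spelling TCAATG, and at least 1 of these was in 2 of 5 windows against 39.4%. CCAAT was in 2 of 5 against 33.8%, TATAAA in 1 of 5 (Col11a2) against 12.4%, and the AP-1 letters TGANTCA in 0 of 5 against 6.75%. The NF-kappaB consensus was in 2 of 5 (Col9a2 and the second Col9a1 start, chr1:24194953-24195202) against 3.9%. These matches describe letters in short windows and say nothing of binding.

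The libraries held 11163263 to 68655350 counts, so the counts behind the collagen genes were large and the spread between libraries, not depth, set the precision. Normalization factors ran from 0.864 to 1.12. The omitted column held 220180 counts, 10 of them on Col2a1, and its highest correlation with any other library was 0.172, against at least 0.968 among the others. With that column included, 18 of the 26 counts of called collagen genes given below changed by over 1.5 times, most of them to 0. A set of 10 predicted genes parted 8 libraries (those of controls at 0 and 4 h and of 4 h IL-1beta) from the other 30 by at least 2 log2 units, and no collagen gene had such a gap. The 4 h TNF-alpha libraries were among the 30. Their comparisons with the 4 h controls or 4 h IL-1beta, and that of controls from 4 to 12 h, therefore cross this parting. In those comparisons it cannot be told apart from treatment or time. Counts of mitochondrial genes were 0.384% to 0.618% of the total in cytokine-treated libraries at 12 to 72 h and 0.237% to 0.443% in controls of those times; their part in the results was not tested.

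Col2a1 was the most abundant transcript by counts in 10 of the 13 groups. Levels are given as CPM, the count scaled to a fixed library size after TMM normalization. In controls its level was 95390 and 67910 CPM at 0 h and 85100, 88870 and 86070 CPM after 4 h. The 12 h controls held 82490, 83650 and 100300 CPM. It was 46060, 51290 and 53110 CPM at 24 h and 49640, 49890 and 64450 at 72 h. All control libraries of 24 and 72 h thus lay below all of those from 0 to 12 h. With IL-1beta its rank fell to 3 by 24 h and 11 by 72 h, while TNF-alpha brought it to 4 by 72 h.

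The other chains were scarcer. Levels can be set side by side between genes only per kilobase, for which the gene length given with the counts was used. It was 12744 bases for Col11a1 and 5068 for Col9a1, and how it was defined is not given. The order of the chains and the percentages between them depend on these lengths, whereas changes of a ratio between groups do not. On that scale Col2a1 was first and Col9a1, the collagen IX chain encoded on chromosome 1, last in each of the 13 groups. In controls at 4 h the mean CPM per kilobase was 14440 ± 327 for Col2a1 (SD, n = 3), 819.9 for Col11a2, 776.8 for Col9a2, 751.3 for Col9a3 and 616.2 for Col11a1. Neighbours among Col11a2, Col9a2 and Col9a3 overlapped between libraries there, whereas Col9a3 and Col11a1 did not. In controls at 72 h the order below Col2a1 was Col9a3 at 752.5, Col11a1 at 710.2, Col9a2 at 611.2 and Col11a2 at 572.5, and each of these overlapped with the next in the order, Col11a2 with Col9a1 included. Within groups of 3 libraries the coefficient of variation of CPM had a median over groups of 8.83% (Col11a1) to 16.6% (Col11a2), and its highest value was 31% (Col9a3).

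**Figure D1:**
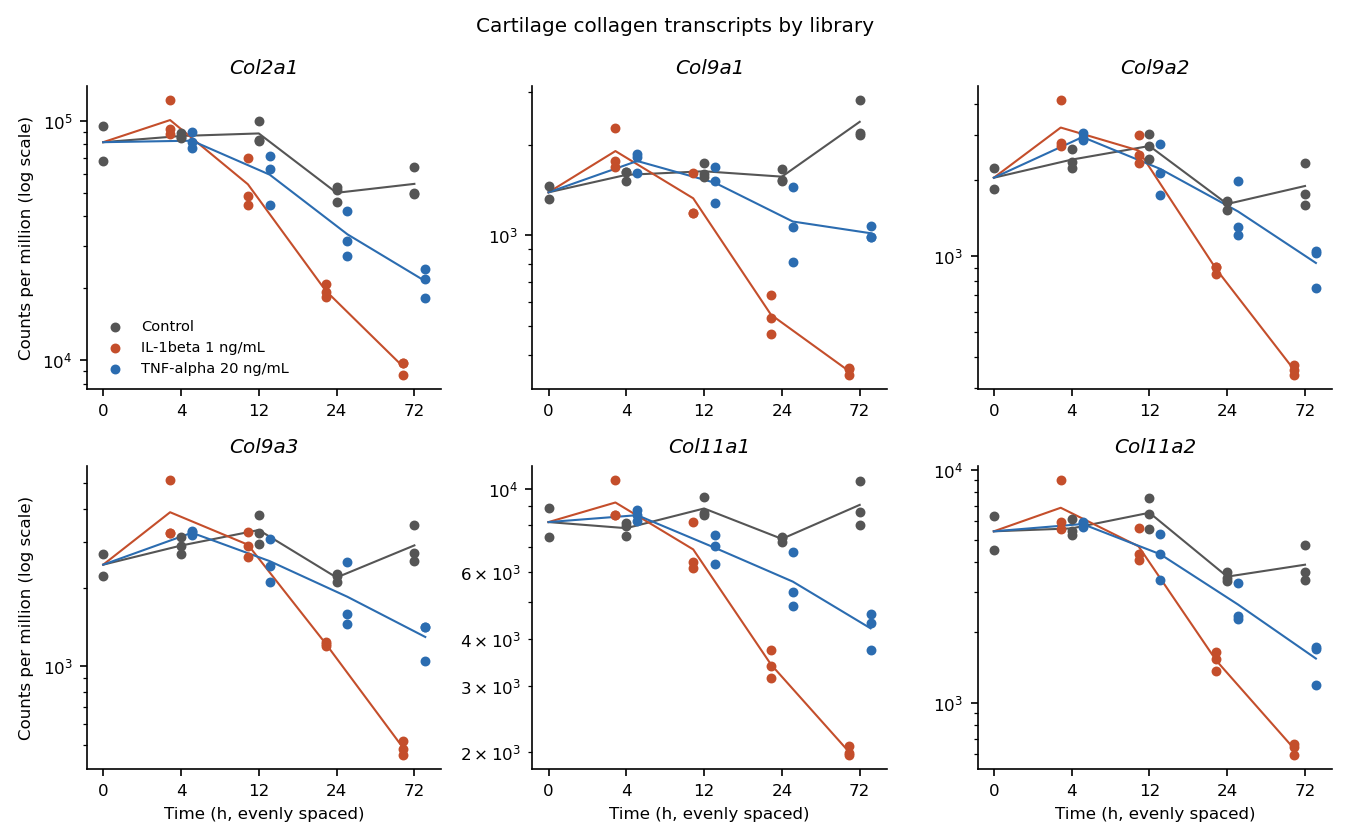
Level of each collagen transcript in every library (points, CPM on a log axis) by time, with lines through group means; the lines of both cytokines start from the shared control at 0 h. By 72 h the 3 IL-1beta libraries of Col2a1 sat between 8644 and 9753, the 3 TNF-alpha libraries between 18260 and 24180 and the 3 controls between 49640 and 64450, with no overlap.

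Together the 6 genes took 9.7% ± 1.84 of all counts in controls at 0 h (SD, n = 2) and 10.8% ± 0.921 at 12 h (SD, n = 3). The share was 6.98% ± 0.319 at 24 h and 7.67% ± 0.958 at 72 h without cytokine. With IL-1beta it was 11.2% ± 1.84 at 4 h, 7.15% ± 1.34 at 12 h, 2.84% ± 0.175 at 24 h and 1.37% ± 0.0805 at 72 h. With TNF-alpha it was 9.74% ± 0.537, 7.6% ± 1.43, 4.87% ± 0.955 and 3.39% ± 0.47 at those times. The 72 h libraries of each cytokine lay below every control library.

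**Figure D2:**
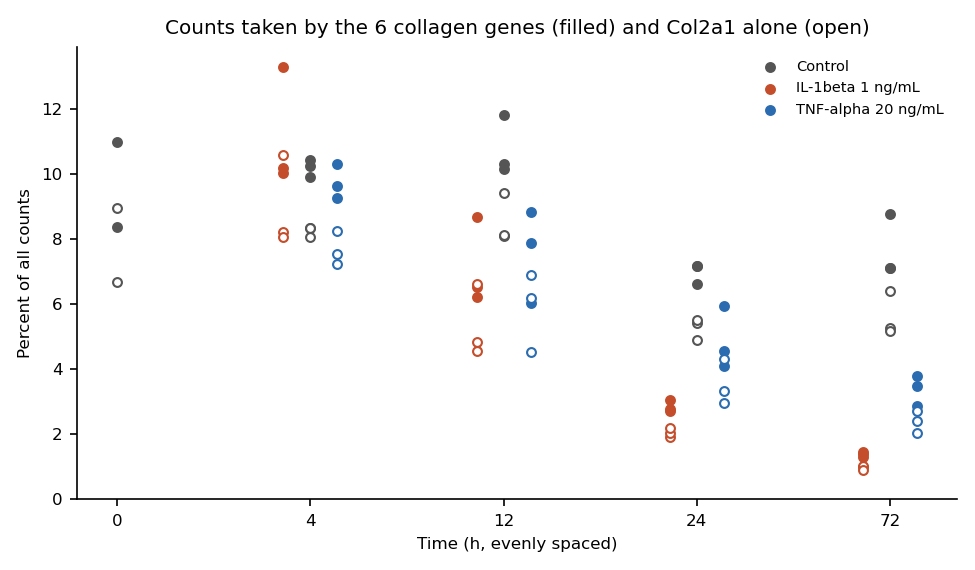
Percent of all counts in each library that fell on the 6 collagen genes (filled points) and on Col2a1 alone (open points), by time and treatment. At 72 h the 6 genes held 1.28% to 1.44% of the counts with IL-1beta, 2.87% to 3.8% with TNF-alpha and 7.12% to 8.78% in controls.

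With IL-1beta the collagen transcripts passed from levels at or slightly above control at 4 h to 4.5-fold to 6.75-fold below control at 72 h. Col2a1 was at 122800, 92330 and 87930 CPM after 4 h, then 48510, 44770 and 70050 CPM after 12 h. It was at 18400, 19340 and 20900 CPM after 24 h, then 9753, 9724 and 8644 CPM after 72 h. The 12, 24 and 72 h libraries all lay below the controls of their time. In edgeR's quasi-likelihood test with Benjamini-Hochberg adjustment over all tested genes, used throughout, Col2a1 changed by log2 -0.71 ± 0.168 (SE) at 12 h (adjusted p = 0.00123), -1.36 ± 0.17 at 24 h (adjusted p = 5.31e-08) and -2.54 ± 0.177 at 72 h (adjusted p = 2.49e-14).

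At 4 h of IL-1beta, 2 of the 6 genes were called higher, against 15.5% of all tested genes called higher. Col9a2 was at 4143, 2796 and 2716 CPM against 2218, 2344 and 2650 in controls, a log2 difference of 0.42 ± 0.165 (SE, adjusted p = 0.0482). Col9a3 was at 5171, 3242 and 3230 CPM against 2680, 2883 and 3121, a difference of 0.42 ± 0.165 (adjusted p = 0.0464). Library a stood apart from b and c for both genes. Without it the log2 differences were 0.22 for Col9a2 and 0.18 for Col9a3 and neither was called. Both calls were also lost without control 4 h library a (0.38 for each gene) or b (0.42 and 0.43). DESeq2 and scaling by library totals alone called 0 of 6. For the other 4 genes the log2 differences were between 0.22 and 0.29 and did not pass the test.

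At 12 h of IL-1beta, 3 of 6 were called lower, Col2a1, Col11a1 and Col11a2, against 15% of all genes. Col11a1, the larger of the collagen XI genes, was at 6392, 6164 and 8140 CPM against 8494, 8598 and 9474 in controls, a log2 difference of -0.36 ± 0.114 (SE, adjusted p = 0.0144). Col11a2, its partner chain, was at 4337, 4099 and 5636 CPM against 5578, 6441 and 7600, a difference of -0.48 ± 0.174 (adjusted p = 0.0347), and library c overlapped the controls. DESeq2 did not call Col11a2 (-0.47, adjusted p = 0.061) and so called 2 of the 6. The Col11a1 and Col11a2 calls were lost without IL-1beta 12 h library a (-0.30 and -0.42), without b (-0.29 and -0.39) or without control 12 h library c (-0.30 and -0.35), and that of Col11a2 also without control 12 h library b (-0.49). The 3 collagen IX genes overlapped their controls, with log2 differences of -0.30 for Col9a1, -0.06 for Col9a2 and -0.19 for Col9a3. Without IL-1beta 12 h library c the Col9a1 difference was -0.46 and passed the test.

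At 24 h of IL-1beta all 6 genes were called lower, against 15.6% of all genes called lower. No library overlapped its controls. The share of all tested genes without such overlap is not given here or below, so non-overlap only describes these genes. Col9a1 was at 468.7, 631 and 532.7 CPM against 1514, 1532 and 1660 in controls, a log2 difference of -1.53 ± 0.145 (SE, adjusted p = 1.18e-10). The other collagen IX chains were less far down, Col9a2 at -0.86 ± 0.166 (adjusted p = 9.37e-05) and Col9a3 at -0.84 ± 0.166 (adjusted p = 0.000118). Col9a2 had 905.7, 849.8 and 905.6 CPM against 1654, 1638 and 1526. Col9a3 had 1244, 1222 and 1198 CPM against 2256, 2207 and 2093. The collagen XI genes were between these, Col11a1 at -1.11 ± 0.115 (adjusted p = 9.78e-10) and Col11a2 at -1.20 ± 0.176 (adjusted p = 1.15e-06).

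At 72 h of IL-1beta all 6 genes were again called lower without overlap, 4.5-fold (Col11a1) to 6.75-fold (Col9a1) below control. The background of genes called lower was 19.7%. Col9a1 was at 358, 361.2 and 341.6 CPM against 2151, 2186 and 2828 in controls (log2 -2.76 ± 0.152, SE, adjusted p = 4.79e-17). Col9a2 was at 356.1, 372 and 337.7 CPM against 1591, 1754 and 2330 (-2.41 ± 0.174, adjusted p = 6.68e-14), and Col9a3 at 484.7, 516.4 and 457.3 against 2535, 2701 and 3462 (-2.58 ± 0.175, adjusted p = 1.31e-14). Control library c was the highest for each of these genes. Col11a1 was at 1987, 2076 and 1965 CPM against 8022, 8644 and 10490 (-2.17 ± 0.119, adjusted p = 3.96e-17), and Col11a2 at 642.6, 663.2 and 593.3 against 3378, 3625 and 4730 (-2.63 ± 0.185, adjusted p = 3.33e-14). The median over the 6 genes was log2 -2.56, against 0.003 over all tested genes, and they ranked between place 149 and place 303 from the lowest fold change of 18857. In bulk tissue, fewer cells of a type and less RNA per cell cannot be told apart.

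With TNF-alpha the same 3 genes were called lower at 12 h as with IL-1beta, and the levels under the 2 cytokines parted from 24 h on. Col2a1 was at 76890, 81520 and 90060 CPM after 4 h and 63230, 71490 and 44470 CPM after 12 h. The 24 h libraries held 27430, 41980 and 31470 CPM, those of 72 h 18260, 21830 and 24180 CPM. From 12 h on these lay below every control library of the same time. At 4 h none of the 6 genes passed the test in either direction, with log2 differences from -0.07 to 0.30, while 21.5% of all genes did. These libraries and the 4 h controls lay on opposite sides of the parting of libraries described above, which cannot be told apart from treatment here. At an unadjusted p under 0.05 the count was also 0, and DESeq2 called 0; only the libraries compared or no low-count filter gave 1 each.

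At 12 h of TNF-alpha, Col2a1 (log2 -0.57 ± 0.168, SE, adjusted p = 0.00893), Col11a1 (-0.35 ± 0.114, adjusted p = 0.0198) and Col11a2 (-0.59 ± 0.174, adjusted p = 0.00918) were called lower, against 13.8% of all genes. Col11a2 was at 4349, 5315 and 3347 CPM, library c being the lowest. All 3 calls were lost without TNF-alpha 12 h library c (-0.40, -0.28 and -0.44) or without control 12 h library c (-0.46, -0.28 and -0.46). Without TNF-alpha 12 h library b, Col9a2 (-0.47) and Col9a3 (-0.54) were called as well. At 24 h, Col2a1 (-0.58 ± 0.168, adjusted p = 0.0094), Col9a1 (-0.50 ± 0.142, adjusted p = 0.00842) and Col11a1 (-0.38 ± 0.114, adjusted p = 0.0127) were called lower, against 11.9% of all genes. Col9a1 was at 818.3, 1451 and 1067 CPM, and library b was the highest of the 3 for each of the 6 genes. All 3 calls were lost without TNF-alpha 24 h library a (-0.45, -0.32 and -0.28), and that of Col11a1 also without c (-0.33). Without b, Col9a3 (-0.53) and Col11a2 (-0.58) were called too.

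At 72 h of TNF-alpha all 6 genes were called lower with no overlap, 2.01-fold (Col9a2) to 2.55-fold (Col2a1) below control, against 18.3% of all genes called lower. Col2a1 changed by log2 -1.35 ± 0.17 (SE, adjusted p = 5.69e-08). Col9a1 was at 988.5, 988.2 and 1073 CPM (-1.23 ± 0.144, adjusted p = 1.21e-08), Col9a2 at 746.2, 1048 and 1024 (-1.01 ± 0.167, adjusted p = 7.78e-06) and Col9a3 at 1046, 1420 and 1420 (-1.16 ± 0.167, adjusted p = 7e-07). Col11a1 was at 3728, 4653 and 4406 CPM (-1.09 ± 0.115, adjusted p = 1.47e-09) and Col11a2 at 1193, 1737 and 1706 (-1.34 ± 0.177, adjusted p = 1.46e-07). Library a was the lowest for 5 of the 6 genes, Col9a1 being the exception.

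**Figure D3:**
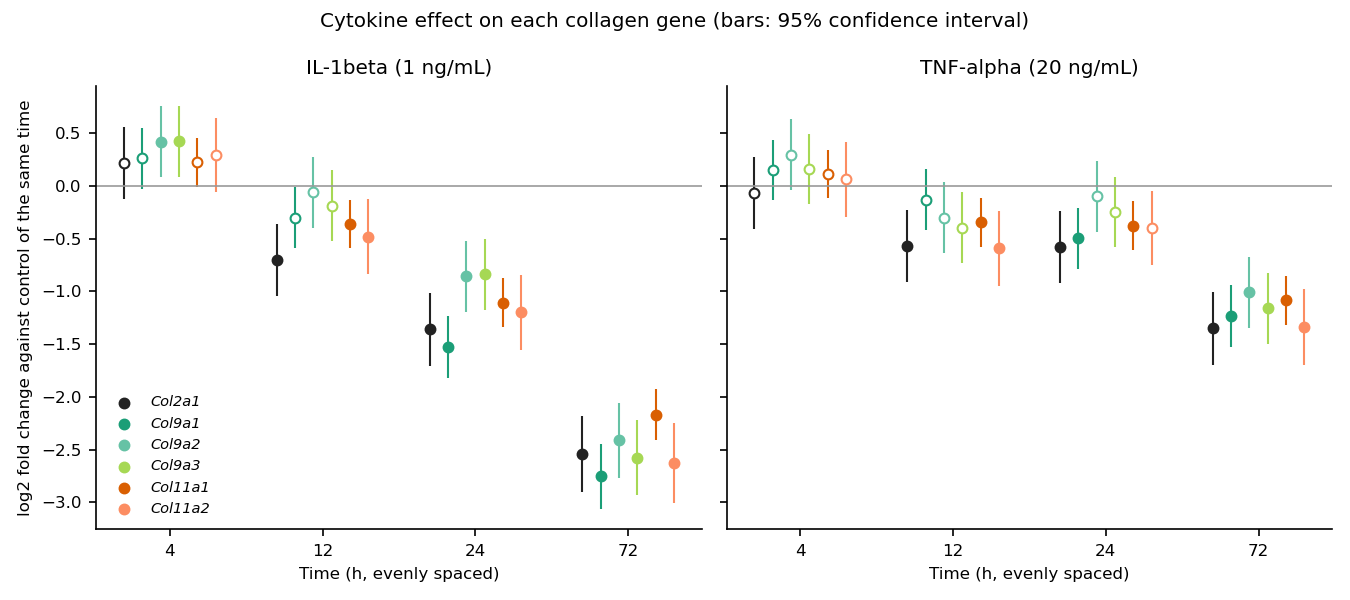
Log2 fold change of each collagen gene against the control of the same time, for IL-1beta (left) and TNF-alpha (right), with bars for the 95% confidence interval and filled points where the adjusted p was below 0.05. Differences at 72 h ran from -2.76 to -2.17 with IL-1beta and from -1.35 to -1.01 with TNF-alpha.

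The libraries of both cytokines were also compared with each other, at doses that differ by weight, so that the comparison is between these treatments and not at matched dose. Both were set against the same controls above. None of the 6 genes was called at 4 h, where 12.4% of all genes were, or at 12 h, where 10.6% were. The count at an unadjusted p under 0.05 was 0 at each time, and DESeq2 called 0. Without the low-count filter Col2a1 (0.31), Col9a3 (0.28) and Col11a2 (0.25) were called at 4 h. At 4 h the widest 95% interval of the log2 difference, that of Col11a2, was -0.12 to 0.59, and at 12 h the same gene had -0.24 to 0.47. The 4 h comparison crosses the parting of libraries described above. At 24 h all 6 were lower with IL-1beta without overlap, against 10.8% of all genes called lower, from -0.59 ± 0.165 for Col9a3 (SE, adjusted p = 0.00734) to -1.03 ± 0.143 for Col9a1 (adjusted p = 6.41e-07). Without TNF-alpha 24 h library b the Col9a3 difference was -0.31 and was not called. At 72 h all 6 were lower with IL-1beta without overlap, against 20.4%, from -1.08 ± 0.115 for Col11a1 (adjusted p = 9.69e-10) to -1.52 ± 0.145 for Col9a1 (adjusted p = 8.53e-11).

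The untreated tissue changed over time as well. Between 0 and 4 h none of the 6 genes was called, against 20.4% of all genes, and between 4 and 12 h none was, against 7.18%; at an unadjusted p under 0.05 the count was 0 in both, and DESeq2 called 0. The step from 4 to 12 h crosses the parting of libraries described above. From 12 to 24 h, 4 of 6 fell, against 11.5% of all genes called lower. These were Col2a1 (log2 -0.82 ± 0.168, SE, adjusted p = 0.000554), Col9a2 (-0.76 ± 0.166, adjusted p = 0.00109), Col9a3 (-0.60 ± 0.165, adjusted p = 0.00806) and Col11a2 (-0.91 ± 0.175, adjusted p = 0.000282). Col9a1 differed by -0.06 ± 0.142 and Col11a1 by -0.27 ± 0.114, neither of which passed the test. From 24 to 72 h Col9a1 rose in controls from 1514, 1532 and 1660 CPM to 2151, 2186 and 2828 (0.61 ± 0.142, adjusted p = 0.00485), and 3.73% of all genes were called higher and 3.7% lower. That call was lost without control 72 h library c. Over the same interval all 6 genes fell with IL-1beta (15.6% of all genes called lower), from log2 -0.62 for Col9a1 to -1.33 for Col9a3. With TNF-alpha 5 fell (6.51%), from -0.41 for Col11a1 to -0.77 for Col11a2, whereas Col9a1 differed by -0.13 ± 0.142. Without TNF-alpha 24 h library b or 72 h library a, 1 gene was called in that last comparison.

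Whether the effect of a cytokine itself differed between times was tested as an interaction. Over the 4 times the IL-1beta effect differed for 6 of 6 genes, where 38.7% of all genes did so, and the TNF-alpha effect for 6 of 6, where 19.2% did. For IL-1beta the effect was lower at 12 h than at 4 h for 3 genes, Col2a1, Col11a1 and Col11a2 (6.24% of all genes). It was lower at 24 h than at 12 h for Col9a1, Col9a2 and Col11a1 (4.34%) and lower at 72 h than at 24 h for all 6 (7.5%), the last with log2 differences from -1.07 ± 0.161 (Col11a1) to -1.74 ± 0.235 (Col9a3). For TNF-alpha none was called between 4 and 12 h (7.42% of all genes in either direction) and none between 12 and 24 h (0.366%). At an unadjusted p under 0.05 the counts there were 5 and 0, and DESeq2 called 1 and 0. The share of all genes at the unadjusted threshold is not given, so the 5 has no background. The TNF-alpha effect from 4 to 12 h also crosses the parting of libraries described above. Between 24 and 72 h 5 were lower (2.38%), with Col2a1 at -0.77 ± 0.237 and an adjusted p of 0.0592. Without TNF-alpha 24 h library b, TNF-alpha 72 h library a or control 72 h library c that count was 1, and without control 24 h library a it was 3. The IL-1beta count between 4 and 12 h was 5 without IL-1beta 4 h library c, the one between 12 and 24 h was 5 without IL-1beta 12 h library b, and the TNF-alpha count between 4 and 12 h was 2 without TNF-alpha 12 h library b.

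Proportions among the chains were followed as the log2 ratio of length-scaled levels within a library, which does not depend on library scaling and is given as a description. The level of Col11a2 was 5.68% to 6.45% of that of Col2a1 in the control means. With IL-1beta at 12 h it was 7.66%, above the controls without overlap (log2 difference 0.25). At 4, 24 and 72 h of IL-1beta and at each time of TNF-alpha the libraries overlapped the controls, the means being 5.94% and 6.31% at 72 h. Col9a1 gained on Col2a1 with time in controls, from 2.19% at 12 h to 3.71% at 24 h and 5.17% at 72 h, the libraries of successive times not overlapping. At 12 h it was above control without overlap under each cytokine, by log2 0.41 with IL-1beta and 0.46 with TNF-alpha. At 72 h it was at 4.47% with IL-1beta, below control without overlap (-0.21), whereas TNF-alpha libraries at 5.67% were above control without overlap (0.13). With TNF-alpha it was also above control at 4 h (0.22), and the remaining times overlapped.

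Col11a1, the chain that fell least with IL-1beta at 72 h, became a larger fraction of Col2a1. It stood at 4.71% in controls at 12 h and 7.81% at 72 h, at 6.05% and 10.1% with IL-1beta, and at 5.63% and 9.41% with TNF-alpha. At 12, 24 and 72 h its ratio was above control without overlap under each cytokine, by log2 0.21 to 0.37. Col9a2 and Col9a3 gained on Col2a1 as well, by more than Col11a1 at 12 and 24 h of IL-1beta. With IL-1beta the Col9a2 differences were 0.67 at 12 h, 0.50 at 24 h and 0.14 at 72 h, all without overlap. Those of Col9a3 were 0.54, 0.52 and -0.03, the last with overlap. With TNF-alpha at 72 h the differences were 0.34 for Col9a2 and 0.19 for Col9a3, both without overlap. The 2 collagen XI genes parted. Col11a2 was at 137% of Col11a1 in controls at 12 h and 80.3% at 72 h, while it was at 58.8% with IL-1beta and 67.2% with TNF-alpha at 72 h. Both 72 h differences from control, -0.45 and -0.26 in log2, were without overlap.

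Within collagen IX, Col9a2 and Col9a3 were of similar level, with Col9a3 between 88.2% and 124% of Col9a2 in group means. At 72 h the ratio was below control without overlap under IL-1beta (log2 -0.17) and TNF-alpha (-0.16), as it was at 12 h of IL-1beta and at 4 and 24 h of TNF-alpha. Ratios to Col9a1 ranged more widely. Col9a2 stood at 272% of Col9a1 in controls at 12 h, 168% at 24 h and 129% at 72 h. With IL-1beta it stood at 324%, 272% and 164%, above the control libraries without overlap at each of these times. With TNF-alpha it stood at 240% at 12 h, lower than control but with overlap, at 222% at 24 h, higher without overlap, and at 151% at 72 h, with overlap. Col9a3 to Col9a1 was below control without overlap at 12 h of TNF-alpha (log2 -0.27) and above it without overlap at 24 h (0.70) and 72 h (0.18) of IL-1beta.

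**Figure D4:**
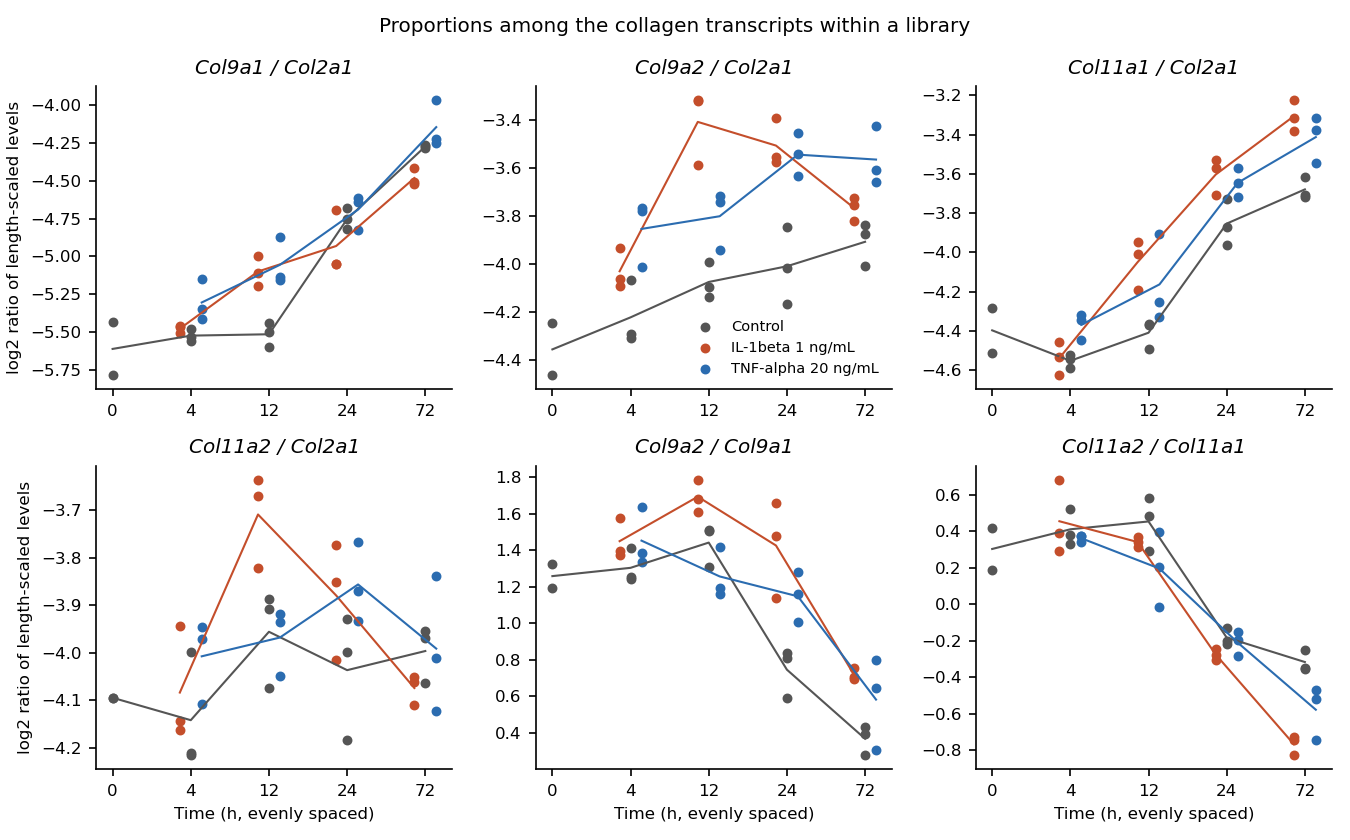
Log2 ratio of length-scaled levels of pairs of collagen transcripts in every library (points) by time, with lines through group means. Col11a1 to Col2a1 rose from a control mean of -4.41 at 12 h to -3.68 at 72 h and to -3.31 with IL-1beta, while Col11a2 to Col2a1 stayed between -4.14 and -3.71 in all group means.

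Across the 38 libraries the log2 levels of the 6 genes correlated with one another at Pearson r of 0.886 (Col9a1 with Col9a2) to 0.991 (Col2a1 with Col11a2). These points share treatment and time; on deviations from group means r ran from 0.704 to 0.983. Of 8921 genes with a mean of at least 10 CPM, those most like Col2a1 were Pxdc1 (0.979), Sdk2 (0.97), Vwa1 (0.969), Slc35a2 (0.964) and Spryd3 (0.962). Acan, which encodes the cartilage proteoglycan aggrecan, led the list for the mean over the collagen IX genes (0.94), before Col8a1, Golim4, Xylt1 and Galnt18, and for the mean over the collagen XI genes (0.955), before Xylt1, Golim4, Clint1 and Cilp2. Xylt1 starts glycosaminoglycan chains on proteoglycans. These values describe likeness over the 38 libraries only.

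Genes that act on collagens were read from 6 lists, chosen with earlier results of these data known. The first holds 26 genes of collagen folding, secretion and cross-linking. With IL-1beta at 72 h, 17 fell and 4 rose (median log2 -0.31), where 19.7% of all genes were called lower and 19.3% higher. Colgalt2, which adds galactose to collagen, went from a mean of 210 to 37.6 CPM (-2.48 ± 0.15, SE, adjusted p = 5.74e-16). P3h4 (-1.06 ± 0.0653, adjusted p = 1.1e-15) and P3h1 (-1.01 ± 0.0853, adjusted p = 4.11e-12), both named for the prolyl 3-hydroxylase family, also fell. With TNF-alpha 22 fell and 1 rose (median -0.63), where 18.3% of all genes were called lower and 17.8% higher. These shares at 72 h are also the background of the counts in the other lists below. There the smallest p-values were those of the lysyl and prolyl hydroxylase genes P4ha1 (-1.52 ± 0.0695, adjusted p = 8.07e-19), Plod1 (-1.07 ± 0.0659, adjusted p = 2.42e-15) and P4ha2 (-1.37 ± 0.0949, adjusted p = 5.59e-14). P4ha1 fell by 0.46 with IL-1beta, Plod1 rose by 0.28, and P4ha2 differed by -0.12 ± 0.093 without passing the test. For all 3 the IL-1beta and TNF-alpha libraries differed (adjusted p = 4.81e-15, 3.17e-18 and 3.02e-13).

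Of 20 transcription regulators linked to Col2a1, 9 fell and 8 rose with IL-1beta at 72 h (median 0.15), and 10 fell and 5 rose with TNF-alpha (median -0.44). Sox9, the main chondrocyte factor, went from a mean of 129 CPM to 46.5 with IL-1beta (-1.48 ± 0.102, SE, adjusted p = 2.08e-14) and 53.6 with TNF-alpha (-1.27 ± 0.1, adjusted p = 1.55e-12), and these 2 did not pass the test against each other (-0.21, adjusted p = 0.103). Its partner Sox6 fell by 0.84 with TNF-alpha (adjusted p = 1.19e-13) and by 0.49 with IL-1beta. Runx1 (1.93 ± 0.0884, adjusted p = 3.94e-19), Cebpb (3.41 ± 0.181, adjusted p = 1.88e-17) and Cebpd (2.11 ± 0.134, adjusted p = 2.2e-15) rose with IL-1beta. With TNF-alpha Cebpb rose by 1.66, Runx1 by 0.34, and Cebpd fell by 0.52.

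Among 11 genes of collagen breakdown, 9 rose and 1 fell with IL-1beta (median 1.45), and 7 rose and 1 fell with TNF-alpha (median 0.91). Mmp13, the main collagenase against collagen II in mice, went from a mean of 339 CPM to 10200 with IL-1beta (4.92 ± 0.16, SE, adjusted p = 4.78e-23) and 1850 with TNF-alpha (2.45 ± 0.143, adjusted p = 6.29e-16). The stromelysin gene Mmp3 went from 268 to 18600 (6.12 ± 0.156, adjusted p = 6.32e-26) and 14000 CPM (5.71 ± 0.153, adjusted p = 3.4e-25). Mmp9 went from 0.378 to 95.6 and 49.5 CPM. The IL-1beta libraries were thus above the TNF-alpha libraries in Mmp13 by log2 2.47 (adjusted p = 2.39e-16).

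The 14 other fibrillar and fibril-associated collagens in the table were read next. With IL-1beta 5 fell and 4 rose (median -0.16), and with TNF-alpha 10 fell and 2 rose (median -0.66). Col5a3, a collagen V chain, rose from a mean of 31.1 CPM to 187 with IL-1beta (2.59 ± 0.169, SE, adjusted p = 5.18e-15) and 361 with TNF-alpha (3.54 ± 0.174, adjusted p = 5.73e-18). Col27a1, another cartilage collagen, fell from 582 to 154 (-1.92 ± 0.158, adjusted p = 1.9e-12) and 272 CPM (-1.10 ± 0.153, adjusted p = 4.41e-07). Col1a1, of bone and skin collagen, fell from 4380 to 861 CPM with TNF-alpha (-2.35 ± 0.181, adjusted p = 8.53e-13) and differed by -0.25 ± 0.173 with IL-1beta without passing the test.

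Of 12 genes whose products bind the fibrils, 9 fell and 2 rose with IL-1beta (median -1.74), and 8 fell and 1 rose with TNF-alpha (median -0.50). Matn3, a matrilin of cartilage, went from 593 CPM to 19.8 with IL-1beta (-4.90 ± 0.194, SE, adjusted p = 7.46e-21) and was at 459 with TNF-alpha (-0.37 ± 0.159, adjusted p = 0.0695). Fmod, the fibromodulin gene, went from 2690 to 518 (-2.38 ± 0.114, adjusted p = 1.54e-18) and 1470 CPM (-0.87 ± 0.109, adjusted p = 5.41e-08). Matn1, Matn3, Comp and Chad stand both in this list and among the chondrocyte markers. Of 7 collagen receptor genes 3 fell and 2 rose with IL-1beta, where 19.7% of all genes were called lower and 19.3% higher. With TNF-alpha 4 fell and 3 rose, where 18.3% were called lower and 17.8% higher. The integrin chain of chondrocytes Itga10 fell by 1.83 ± 0.106 (SE, adjusted p = 1.8e-16) and 0.55 ± 0.0996 (adjusted p = 3e-05), and Itga11 fell by 0.82 and 2.79.

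**Figure D5:**
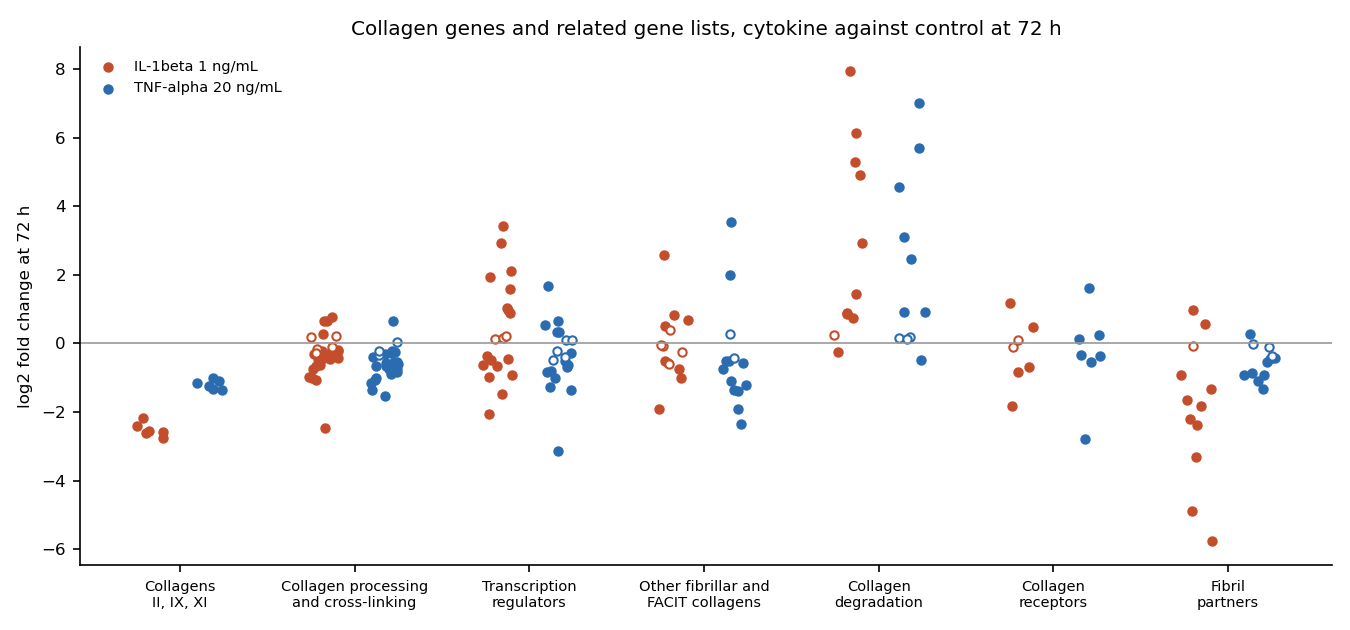
Log2 fold change at 72 h against control of the 6 collagen genes and of the genes in 6 related lists, for IL-1beta and TNF-alpha; each point is a gene and filled points had an adjusted p below 0.05. The collagen genes lay between -2.76 and -1.01, and the breakdown list reached 7.95 (Mmp9 with IL-1beta).

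Markers of cell types were read as summed levels. The 9 chondrocyte markers found by symbol summed to 22100 to 30100 CPM in controls at 72 h, 6320 to 6450 with IL-1beta (9 of 9 called lower) and 15200 to 16400 with TNF-alpha (8 of 9). All 9 had counts in every library, but at unlike levels. Over all libraries Comp held 4510 to 17100 CPM and Acan 892 to 11300, so these 2 weigh heavily in the sum. Matn1 held 1.29 to 121 CPM, Chad 11.4 to 455 and Matn3 16.9 to 677. The 10 fibroblast markers summed to 5410 to 5550 CPM in controls at 72 h, 12100 to 13200 with IL-1beta, where 8 were called higher, and 5730 to 6520 with TNF-alpha, where 4 rose and 3 fell. Of all genes, 19.7% were called lower and 19.3% higher with IL-1beta at 72 h, and 18.3% and 17.8% with TNF-alpha. At 24 h the chondrocyte markers summed to 18500 to 19700 CPM in controls, 8070 to 8580 under IL-1beta and 15800 to 25000 under TNF-alpha. The fibroblast markers then summed to 6060 to 6460, 8680 to 9490 and 4590 to 6170 CPM in the same order. Macrophage markers at 72 h summed to 27.3 to 30.7 CPM in controls, 32.7 to 38.6 under IL-1beta and 48.8 to 70.1 under TNF-alpha. Adipocyte markers summed to 276 to 371, 658 to 688 and 217 to 313 CPM, neural markers to 104 to 117, 39.7 to 46 and 48.4 to 65, and muscle markers to 12.8 to 15.7, 4.54 to 5.72 and 5.41 to 6.42 CPM. Over all libraries Fabp4 alone held 177 to 714 CPM of the adipocyte sum, where Plin1 came next at up to 16. Map2 alone held 34.8 to 114 CPM of the neural sum. Those 2 sums thus mostly follow 1 gene each and do not describe the other markers. Osteoblast markers summed to 13500 to 14900, 11900 to 13700 and 20100 to 23400 CPM at 72 h. The part of these shifts in the collagen results was not tested. Over all libraries macrophage markers summed to 17.7 to 70.1 CPM, with Ptprc at 0 to 0.541 and Adgre1 at 0 to 1.11. Higher in that list were Cd68 at 7.9 to 54.4 and Lyz2 at 1.96 to 26. Endothelial markers summed to 1.34 to 3.24 CPM and pluripotency markers to 1.64 to 3.35, with Pou5f1 at 0 to 0.27 and Sox2 at 1.53 to 3.13. Neural markers summed to 38.6 to 117 CPM, muscle markers to 3.6 to 15.7, adipocyte markers to 182 to 732 and osteoblast markers to 11900 to 32500, of which Spp1 held 11800 to 32500. Of the other osteoblast markers, Bglap was at 0 to 0.145 CPM, whereas Ibsp reached 35.3, Dmp1 36.9 and Alpl 5.19.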

How the data were processed

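RNA was sequenced from 39 tissue-engineered cartilage libraries after ribosomal RNA removal, per the labels' protocols. Counts per gene were deposited by the authors as raw, un-normalized counts. Tools listed in the submitters' processing notes, without versions, are featureCounts, STAR, cutadapt and Trimmomatic, with the build mm10; the strand setting and the annotation used are not given in these sources. The table holds 2199 lines without a gene name, which were left out, and 0 columns of other samples. One column, control 0 h library b, did not line up with the gene names and was left out. The small RNA libraries were not used here.

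Counts were fitted with edgeR 4.0.16 (TMM scaling, filterByExpr by group, quasi-likelihood F test, 1 coefficient per group over 38 libraries) in R 4.3.3, with Benjamini-Hochberg adjustment over 18857 genes; tested genes held 99.905% of counts. A gene was called at an adjusted p below 0.05. The script was tested on simulated data. DESeq2 1.42.0 was an alternative. Library totals were 11163263 to 68655350 counts, and replicate libraries differed by more than counting noise (chi-square per degree of freedom of at least 3.39). Members and lists were chosen with earlier results of these data known. All 6 collagen genes are named, with the 5 genes most like each type in pattern and, of each list, the 2 to 4 genes of smallest p at 72 h for each cytokine. Ptprc, Pou5f1, Bglap and Comp fall outside that rule and were chosen after their values were seen. Cd68, Lyz2, Sox2, Ibsp, Dmp1, Alpl, Fabp4, Plin1, Map2, Matn1 and Chad were also named after their values were seen. Sequences are from RefSeq tables of GRCm38.p6, which held a window for 4 of the 6 genes.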

Additional observations from a re-analysis of the deposited data

Results flagged for a closer look

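Tests of a difference between effects of the same cytokine at successive times passed for the collagen genes below, with log2 values for the later effect minus the earlier one. They are the values behind the counts in the report, set out gene by gene. For IL-1beta from 4 to 12 h the values were -0.93 for Col2a1, -0.59 for Col11a1 and -0.77 for Col11a2. From 12 to 24 h they were -1.23 for Col9a1, -0.80 for Col9a2 and -0.75 for Col11a1. From 24 to 72 h they were -1.18 for Col2a1, -1.23 for Col9a1, -1.56 for Col9a2, -1.74 for Col9a3, -1.07 for Col11a1 and -1.43 for Col11a2. For TNF-alpha from 24 to 72 h they were -0.74 for Col9a1, -0.91 for Col9a2, -0.92 for Col9a3, -0.71 for Col11a1 and -0.94 for Col11a2. Col9a1 is the gene whose controls rose over that last interval, and its values there include that rise.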

How the results depend on the processing

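Counts of called collagen genes (of 6) were recomputed under each alternative, and a count is said to have moved where it changed by over 1.5 times. With the omitted column included, the SE of a log2 difference rose to 0.552 to 0.911 (0.114 to 0.185 without it) and 18 of 26 counts moved: 1 gene stayed called for IL-1beta against TNF-alpha at 72 h and for the IL-1beta effect over 4 times, 0 in the other 16, while IL-1beta against control at 72 h kept 6. Without a low-count filter the SE was 0.0634 to 0.0758 and 12 counts rose. These were to 6 for IL-1beta against control at 4 h and for the IL-1beta effect from 4 to 12 h and from 12 to 24 h, to 5 for both cytokines against control at 12 h, for TNF-alpha at 24 h and for the TNF-alpha effect from 4 to 12 h, to 4 for controls from 24 to 72 h, to 3 for IL-1beta against TNF-alpha at 4 h and for controls from 0 to 4 h, and to 1 for TNF-alpha against control at 4 h and for its effect from 12 to 24 h. With only the libraries compared, the counts were 6 for the IL-1beta effect from 12 to 24 h, 1 for IL-1beta and 1 for TNF-alpha at 4 h, 2 for TNF-alpha from 24 to 72 h, 2 for the TNF-alpha effect from 4 to 12 h and 2 for controls from 24 to 72 h. Library totals alone gave 6 for the IL-1beta effect from 12 to 24 h and 0 for IL-1beta at 4 h. DESeq2 gave 0 for IL-1beta at 4 h and 1 for the TNF-alpha effect from 4 to 12 h, and smaller changes to 2 for IL-1beta at 12 h, 4 for the IL-1beta effect from 4 to 12 h and 6 for the TNF-alpha effect from 24 to 72 h. DESeq2 size factors and scaling without the 6 genes moved none of the 26 counts. The cause of these moves was not tested.

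No shared signal was seen between libraries of the same letter. Deviations of same-letter libraries from their group means had a median correlation of -0.003, and 6 of 222 pairs were over 0.1. For pairs of other letters the median was 0.00088, and 14 of 444 were over 0.1. These values cannot tell whether a letter marks a shared culture or batch. With the letter as a replicate block the counts were as reported, such as 6 for IL-1beta and 6 for TNF-alpha at 72 h, 2 for IL-1beta at 4 h and 0 for TNF-alpha at 4 h, and 0 of 72 single calls changed.

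Leaving out 1 library at a time gave 6 throughout for IL-1beta at 24 and 72 h, for TNF-alpha at 72 h, for IL-1beta against TNF-alpha at 72 h and for both effects over 4 times. The range was 0 to 2 for IL-1beta at 4 h, 1 to 4 at 12 h, 0 to 5 for TNF-alpha at 12 h and at 24 h, 5 to 6 for IL-1beta against TNF-alpha at 24 h, 2 to 5 for the IL-1beta effect from 4 to 12 h and from 12 to 24 h, 0 to 2 and 1 to 6 for the TNF-alpha effect from 4 to 12 h and from 24 to 72 h, 1 to 5 for TNF-alpha from 24 to 72 h, and 3 to 4 and 0 to 1 for controls from 12 to 24 h and from 24 to 72 h. Some differences that were not called changed sign. Against the 12 h controls the TNF-alpha 4 h values were -0.06 for Col11a1, -0.16 for Col11a2 and -0.03 for Col9a3. Those controls lay on the same side of the parting of libraries as 4 h TNF-alpha, and the count of called genes did not change against them. Leaving out 1 library gave, for IL-1beta against TNF-alpha at 12 h, -0.37 to 0.00 for Col2a1, -0.16 to 0.06 for Col11a1 and -0.05 to 0.27 for Col11a2. At 4 h it gave -0.01 to 0.19 for Col9a1 and -0.08 to 0.24 for Col9a2. Against control, Col9a2 ranged from -0.17 to 0.03 for IL-1beta at 12 h and -0.35 to 0.03 for TNF-alpha at 24 h. Adding 0.5 counts changed none of the 108 ratio differences beyond their spread.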

Other observations

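In untreated tissue from 24 to 72 h, where 3.73% of all tested genes were called higher and 3.7% lower, 8 of the 12 fibril-binding genes rose and 0 fell (median log2 difference 0.60), while 1 of the 6 collagen genes rose. Over the same interval 7 of the 26 collagen folding, secretion and cross-linking genes rose and 5 fell (median 0.05), and 0 of the 11 breakdown genes rose and 1 fell (median -0.12).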
